A study of Homo sapiens with 9 samples.

Results

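The guides described here target the enzymes that attach the ubiquitin-like protein NEDD8 to cullins, together with a DCUN1D co-factor. Members were chosen by gene name, as guides against UBA3, NAE1, NEDD8, UBE2M, UBE2F or any gene whose name begins with DCUN1D. The rule found 6 genes with 10 guides each, which is 60 of the 11170 guides and 6 of the 1117 genes of the library, and DCUN1D1 was the 1 DCUN1D gene among them. They were counted in DNA of U251 cells, an established human glioma line, in a pooled single-guide RNA (sgRNA) screen with temozolomide, a DNA-alkylating chemotherapy drug. All libraries came from cells with stable sgRNA expression, grown in DMEM with serum. By their titles 3 libraries each had 0, 200 and 1500 µM temozolomide, called no drug, the low dose and the high dose, and the treatment lasted 72 hours. The treatment protocol writes the same doses in nM, so the unit is not settled and the doses serve as group names. The labels name neither the nuclease nor a vehicle for the 0 µM cells, and they do not say whether replicate numbers 1 to 3 mark separate cultures, so p-values measure no more than how far these libraries differ, and that may be technical.

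Neddylation runs through a cascade like that of ubiquitin. UBA3, the catalytic subunit, and NAE1, the regulatory subunit, form the NEDD8-activating enzyme, which passes NEDD8 to the conjugating enzymes UBE2M or UBE2F. UBE2M works mainly with the RING protein RBX1 and UBE2F with RNF7, and DCUN1D1, also called DCNL1, is a co-factor that helps the conjugating enzyme modify cullins. Attachment of NEDD8 activates cullin-RING ubiquitin ligases, which control the turnover of cell cycle and DNA replication proteins.

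Library totals lay between 1852340 and 2790563 counts, and levels are given as CPM, counts scaled to the library total. For a guide at 0 in a library an expected count of up to 3 was taken as possible, equal to 1.08 to 1.62 CPM. Libraries with the same replicate number resembled each other across doses, so values are given for replicates 1, 2 and 3 in this order. The guide UBE2A.7 alone took 18.6% of the counts of replicate 2 at the high dose, against 1.13% of replicate 2 without drug, which lowers the CPM of all other guides of that treated library. Log2 fold changes from edgeR use TMM scaling, which compensates for such a guide, and cover guides that reached 10 counts in 3 or more of the 9 libraries.

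Guides against these genes other than UBE2F were more often scarce without drug than guides of the whole table. Of the 60 guides, 23 (38.3%) had a mean under 10 counts without drug, against 11.2% of all guides in the table. The scarce ones were spread as 6 of 10 for NEDD8, 5 of 10 each for NAE1 and UBE2M, 3 of 10 each for UBA3 and DCUN1D1 and 1 of 10 for UBE2F. DCUN1D1.4 and NEDD8.9 had 0 counts in every library. The median guide level without drug was 1.96 CPM for NEDD8, 4.09 CPM for UBE2M, 4.85 CPM for NAE1, 12.9 CPM for UBA3, 19.7 CPM for DCUN1D1 and 42.3 CPM for UBE2F, beside a median of 62.1 CPM over all genes. By this measure NEDD8 ranked 15 from the lowest of 1117 genes, UBE2M 41, NAE1 49, UBA3 110, DCUN1D1 148 and UBE2F 310. Neither a plasmid pool nor cells from before the drug were analysed here, so loss of cells and a thin starting pool cannot be told apart.

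Summed over the 10 guides of a gene, the order without drug was different, with NEDD8, UBE2M and DCUN1D1 higher among the 6 than by their median guide. NAE1 had 105 ± 49.9 CPM, UBA3 188 ± 46.9 CPM, UBE2M 232 ± 56.6 CPM, NEDD8 470 ± 245 CPM, UBE2F 566 ± 160 CPM and DCUN1D1 3397 ± 2136 CPM (SD, n = 3). Neighbours in this order overlapped over the 3 libraries, except UBE2F, which reached 682 CPM at most, and DCUN1D1, which had at least 1066 CPM.

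At 1500 against 0 µM the question was whether guides against these genes became more or less frequent with the drug. None of the 44 tested member guides passed edgeR's quasi-likelihood test at an adjusted p under 0.05, and 0% of the 10337 tested guides did. At an unadjusted p under 0.05 there were 0 of 44 members (background 0.203%), and 4 of 44 with the replicate number as a block in edgeR (background 2.61%), namely DCUN1D1.3, NEDD8.5, UBA3.4 and UBE2M.8. DESeq2 without the block called no member and gave no adjusted p for 4 of 44, with 3 of 44 at an unadjusted p under 0.05 (background 0.59%), and DESeq2 with the block called DCUN1D1.3 (background 0.058%), with 5 of 44 at an unadjusted p under 0.05 (background 4.67%). The gene sums gave no member call among 6 (background 0% of 1117 genes), with DCUN1D1 at an unadjusted p under 0.05 (background 0.269%), also with the block (background 6.62%). No member sum passed in edgeR with the block (background 0.0895%), DESeq2 (background 0.0895%) or DESeq2 with the block (background 0.269%). DCUN1D1 alone of the 6 had an unadjusted p under 0.05 in DESeq2 (background 0.358%) and in DESeq2 with the block (background 6.62%). Over the 44 tested members 24 log2 fold changes were above 0 (background 43.9%), with a median of 0.11 against -0.08 over all tested guides. In DESeq2 with the block 22 of 44 were above 0 (background 47.3%), with a median of -0.0039. Over the 6 gene sums 5 were above 0 (background 44.8%), with a median of 0.39 against -0.03 over all genes. The DCUN1D1 sum was among these 5, and without DCUN1D1.3 it had -0.55.

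The levels of 5 tested member guides did not overlap between the groups, all higher at the high dose (background 1.56% of tested guides), and none of the 16 untested members did so. They were UBA3.3, UBA3.4, UBA3.5, UBE2M.8 and DCUN1D1.3, of which UBE2M.8 overlapped once TMM factors were applied. No member guide was lower without overlap (background 1.05%). Of the gene sums DCUN1D1 was higher without overlap (background 0.627%) and none was lower (background 2.06%). In each of 3 pairs 7 member guides were higher (background 12.2%) and none lower (background 11.6%), and so were the sums of NAE1, NEDD8, UBE2M and DCUN1D1 (background 6%), with UBE2F lower (background 23.5%). With TMM factors NEDD8 and UBE2F no longer did so. A scarce guide can reach the count minimum only through the libraries where it is high, as UBA3.4 did, so these counts describe the guides and support nothing further.

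UBA3, the catalytic subunit of the activating enzyme, had all 10 guides tested, with guide log2 fold changes from -2.42 to 4.45, a median of 0.53 and 7 of 10 above 0. With the replicate block the median was 0.28, with 6 of 10 above 0. Without the block and with 1 library left out it lay between 0.48 and 1.01. Its summed level was 237, 182 and 144 CPM without drug, 334, 235 and 154 CPM at the low dose and 229, 283 and 233 CPM at the high dose. Replicates 2 and 3 were higher at the high dose than without drug and replicate 1 was not, and the groups overlapped. For the sum at 1500 against 0 µM the log2 fold change was 0.50 ± 0.41 (SE), with an edgeR adjusted p of 1.00. With the replicate block it was 0.52 ± 0.31 (SE, edgeR adjusted p = 0.810).

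The UBA3 guides differed from each other. UBA3.3 had 3, 6 and 10 counts without drug, 18, 3 and 114 at the low dose and 25, 74 and 80 at the high dose. Every library at the high dose was above every library without drug, and replicate 2 at the low dose was as low as the untreated libraries. The fitted log2 difference between 1500 and 0 µM was 2.97 ± 1.31 (SE, unadjusted p = 0.0550, adjusted p = 1.00 in edgeR). UBA3.4 had 0, 5 and 0 counts without drug, 0, 28 and 0 at the low dose and 43, 62 and 30 at the high dose, so it was present in all 3 libraries only at the high dose. UBA3.5 had 25, 28 and 24 counts without drug, 182, 56 and 47 at the low dose and 61, 103 and 74 at the high dose, and both treated groups lay above the untreated libraries. The other 7 UBA3 guides did not share this pattern. UBA3.6 had 0, 5 and 106 counts without drug and 0, 0 and 24 at the high dose, given here as the lowest of the 10 with a log2 fold change of -2.42. UBA3.9 had 15, 231 and 0 counts without drug, 0, 148 and 15 at the low dose and 0, 262 and 44 at the high dose, a guide that followed the replicate number more than the dose. The guide counts were low throughout, and the highest count of any UBA3 guide in any library was 445, for UBA3.1 in replicate 1 at the high dose.

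NAE1, the regulatory subunit, had the lowest summed level of the 6 genes at every dose. The sums were 70.2, 83.6 and 162 CPM without drug, 102, 138 and 153 CPM at the low dose and 83.9, 97.9 and 196 CPM at the high dose. Each replicate was a little higher at the high dose than without drug, by 0.25, 0.23 and 0.27 on the log2(CPM + 1) scale, while the groups overlapped. The log2 fold change of the sum was 0.35 ± 0.57 (SE), with an edgeR adjusted p of 1.00, and its sign turned without replicate 3 at the high dose (-0.04). With the block the sum had 0.35 ± 0.39 (SE, edgeR adjusted p = 0.906). Of 8 tested NAE1 guides 5 had a log2 fold change above 0, with a median of 0.20. This median turned to -0.028 without untreated replicate 1, -0.25 without untreated replicate 2, -0.10 without replicate 2 at the high dose and -0.27 without replicate 3 at the high dose, and was 1.33 without untreated replicate 3. NAE1.1 had 6, 21 and 47 counts without drug, 26, 7 and 125 at the low dose and 65, 40 and 139 at the high dose, with a log2 fold change of 1.43 ± 1.11 (SE, edgeR adjusted p = 1.00). It was higher in each of the 3 pairs at the high dose, and the groups overlapped. NAE1.7 had 59, 14 and 34 counts without drug, 59, 59 and 27 at the low dose and 7, 21 and 0 at the high dose. By CPM it was lower at the high dose than without drug in replicates 1 and 3 and higher in replicate 2. NAE1.2, too scarce to be tested, had counts of 0, 0 and 0 without drug, 0, 3 and 0 at the low dose and 54, 0 and 43 at the high dose.

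Guides against NEDD8 itself, the modifier, were mostly near 0 counts, and 3 of them carried nearly all of the sum. NEDD8.6 had 1054, 7 and 1 counts without drug, 969, 9 and 37 at the low dose and 1354, 0 and 32 at the high dose, so it was abundant in replicate 1 alone at every dose. NEDD8.4 was abundant in replicate 3 alone, with 18, 0 and 951 counts without drug, 32, 5 and 530 at the low dose and 49, 9 and 1000 at the high dose. NEDD8.5 had 53, 422 and 89 counts without drug, 200, 363 and 85 at the low dose and 254, 504 and 235 at the high dose. It was the guide of the 3 with counts in every library, and it was higher at the high dose than without drug in each pair. With the block its log2 fold change was 0.94 ± 0.39 (SE, unadjusted p = 0.0451, adjusted p = 1.00 in edgeR), and without the block 0.61 ± 0.89 (SE). NEDD8.7, the NEDD8 guide of lowest p without the block, had 12, 1 and 0 counts without drug, 0, 12 and 0 at the low dose and 82, 5 and 0 at the high dose. Its log2 fold change of 1.99 ± 2.51 (SE, edgeR adjusted p = 1.00) rested on replicate 1, and it was -1.08 without replicate 1 at the high dose. The other 6 NEDD8 guides had at most 60 counts in any library. The summed level was 470 ± 245 CPM without drug, 353 ± 211 CPM at the low dose and 493 ± 244 CPM at the high dose (SD, n = 3). At 1500 against 0 µM its log2 fold change was 0.13 ± 0.55 (SE, edgeR adjusted p = 1.00). The sign turned without untreated replicate 2 (-0.27), replicate 1 at the high dose (-0.10) or replicate 3 at the high dose (-0.05). With the block the sum had 0.19 ± 0.19 (SE, edgeR adjusted p = 0.871).

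The conjugating enzymes differed in how well their guides were represented. UBE2M had 5 tested guides of 10, all 5 with a log2 fold change above 0 at 1500 against 0 µM and a median of 0.20. With 1 library left out 2 to 5 of the 5 were above 0 with a median of -0.41 to 1.04, the lowest without replicate 2 at the high dose, and DESeq2 with the block gave 4 of 5 with a median of 0.081. Its summed level was 295, 185 and 215 CPM without drug, 344, 188 and 229 CPM at the low dose and 369, 252 and 259 CPM at the high dose. Each replicate was higher at the high dose than without drug, by 0.32, 0.44 and 0.27 on the log2(CPM + 1) scale, and the groups overlapped. The log2 fold change of the sum was 0.43 ± 0.39 (SE, edgeR adjusted p = 1.00), and 0.44 ± 0.26 with the block (SE, edgeR adjusted p = 0.810). UBE2M.7 had the highest count of the UBE2M guides, or shared it with UBE2M.8, in every library, with 470, 170 and 305 counts without drug, 548, 147 and 334 at the low dose and 819, 175 and 389 at the high dose, and a log2 fold change of 0.04. UBE2M.8 had 24, 41 and 12 counts without drug, 13, 64 and 0 at the low dose and 140, 175 and 44 at the high dose. It was higher at the high dose than without drug in each pair, by 1.87, 1.90 and 1.55 on the log2(CPM + 1) scale, which it was not at the low dose. The fitted log2 difference between 1500 and 0 µM was 1.89 ± 0.97 (SE, unadjusted p = 0.0883), and with the block 1.82 ± 0.67 (SE, unadjusted p = 0.0285), both with an edgeR adjusted p of 1.00. The 5 untested UBE2M guides had at most 19 counts in any library.

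UBE2F, the other conjugating enzyme, had 9 tested guides of 10 and the narrowest spread of guide fold changes, from -1.10 to 0.21 with a median of -0.19 and 3 of 9 above 0. The median turned to 0.12 with 6 of 9 above 0 without untreated replicate 1, and to 0.058 with 5 of 9 without untreated replicate 3. The SD over guides was 0.39, against 1.89 for UBA3, 1.11 for NAE1, 0.96 for NEDD8, 0.76 for UBE2M and 1.34 for DCUN1D1. Without DCUN1D1.3 the SD over the DCUN1D1 guides was 0.51. UBE2F also had the highest median guide level, so these SDs compare guides of different depth. The summed UBE2F level was 682, 384 and 633 CPM without drug, 419, 417 and 719 CPM at the low dose and 538, 381 and 547 CPM at the high dose. It was lower at the high dose than without drug in each pair, by a small amount in replicate 2, and no longer in each pair once TMM factors were applied. The log2 fold change was -0.13 ± 0.34 (SE, edgeR adjusted p = 1.00), and 0.07 without untreated replicate 1. With the block the sum had -0.091 ± 0.19 (SE, edgeR adjusted p = 0.944). UBE2F.7, its guide of lowest p, had 580, 129 and 94 counts without drug, 221, 76 and 199 at the low dose and 238, 183 and 114 at the high dose. Its log2 fold change of -1.10 ± 0.92 (SE, edgeR adjusted p = 1.00) came from replicate 1 and was 0.43 without untreated replicate 1.

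DCUN1D1, the co-factor of cullin neddylation, had the highest sum of the 6 genes, and DCUN1D1.3 held most of it in 7 of the 9 libraries, the exceptions being replicate 1 without drug and at the low dose. DCUN1D1.3 had 2586, 1964 and 6359 counts without drug, 4529, 12240 and 28444 at the low dose and 86558, 20435 and 14329 at the high dose. Every library at the high dose lay above every library without drug, whereas the low dose overlapped both others. Its share of all counts was 0.140%, 0.0850% and 0.343% without drug, 0.219%, 0.618% and 1.15% at the low dose and 3.10%, 0.803% and 0.679% at the high dose. The exact Clopper-Pearson 95% interval, which covers counting error only, was 3.08 to 3.12% for the highest of these shares and 0.0813 to 0.0889% for the lowest. It was the second most abundant guide (rank 2) in all 3 libraries at the high dose, ranked 9, 2 and 2 at the low dose and 33, 67 and 2 without drug. Within the DCUN1D1 sum it held 26.5%, 79.8% and 88.9% without drug, 37.6%, 95.8% and 96.4% at the low dose and 92.7%, 97.5% and 94.6% at the high dose.

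The difference in DCUN1D1.3 at 1500 against 0 µM passed the test in DESeq2 with the replicate block, and in neither edgeR fit nor DESeq2 without the block. In DESeq2 with the block the log2 fold change was 2.89 ± 0.53 (SE, adjusted p = 0.000168). In edgeR it was 3.04 ± 1.57 (SE, unadjusted p = 0.0917) without the block and 2.90 ± 0.76 (SE, unadjusted p = 0.00613) with it, both with an adjusted p of 1.00. DESeq2 without the block gave 3.02 ± 0.87 (SE, adjusted p = 1.00). The size differed between replicates, at 4.47, 3.24 and 0.98 on the log2(CPM + 1) scale for the pairs 1, 2 and 3. With replicate 1 left out of the blocked DESeq2 fit the call ended (2.13 ± 1.08, adjusted p = 0.50). Without replicate 2 it was 2.61 ± 0.57 (adjusted p = 0.0151) and without replicate 3 it was 3.79 ± 0.36 (adjusted p = 1.77e-22).

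No other tested DCUN1D1 guide was higher in each of the 3 pairs at 1500 against 0 µM. DCUN1D1.2 had 5585, 80 and 155 counts without drug, 6145, 126 and 155 at the low dose and 4690, 56 and 191 at the high dose, and DCUN1D1.10 had 1392, 136 and 124 counts without drug, 1124, 109 and 445 at the low dose and 1752, 164 and 242 at the high dose. Both were abundant in replicate 1 at every dose, treated or not. DCUN1D1.7 had 172, 97 and 357 counts without drug, 195, 89 and 236 at the low dose and 318, 120 and 299 at the high dose. Of the 6 tested guides other than DCUN1D1.3, 1 had a log2 fold change above 0, and they ranged from -1.002 to 0.51 with a median of -0.23. With 1 library left out 2 or 3 of the 6 were above 0, and the median turned to 0.078 without untreated replicate 1. The remaining guides DCUN1D1.4, DCUN1D1.6 and DCUN1D1.9 were not tested and had at most 31 counts in any library.

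The gene total therefore depended on whether DCUN1D1.3 was counted. With it the DCUN1D1 sum was 3397 ± 2136 CPM without drug, 8086 ± 3389 CPM at the low dose and 16292 ± 14883 CPM at the high dose (SD, n = 3), with a log2 fold change at 1500 against 0 µM of 2.34 ± 0.95 (SE, unadjusted p = 0.0371, adjusted p = 1.00 in edgeR) and of 2.29 ± 0.60 with the block (SE, edgeR adjusted p = 0.307). With 1 library left out the edgeR value without the block lay between 1.29 and 2.87, the lowest without replicate 1 at the high dose (unadjusted p = 0.152), and the unadjusted p was 0.101 without untreated replicate 2 and likewise 0.101 without untreated replicate 3. Without it the sum was 3866, 215 and 430 CPM without drug, 3630, 273 and 432 CPM at the low dose and 2448, 207 and 385 CPM at the high dose. Replicate 1 stood apart at every dose, and each replicate was lower at the high dose than without drug by CPM, though not in each pair once TMM factors were applied. The log2 fold change without DCUN1D1.3 was -0.55 ± 1.181 (SE, edgeR adjusted p = 1.00), and -0.20 ± 0.18 with the block (SE, edgeR adjusted p = 0.840). It ranged from -2.33 to 1.78 when 1 of the 6 libraries was left out, the higher end without untreated replicate 1.

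At 200 against 0 µM no member guide and no member gene passed, in edgeR or DESeq2, with or without the block, where DESeq2 without the block gave no adjusted p for 5 of the 44 guides. The background was 0% of guides and of genes in edgeR, 0.058% of guides in DESeq2 with the block, and 0 of 44 members had an unadjusted p under 0.05 in edgeR (background 0.135%). With the block 1 of 44 had one (background 2.23%), DCUN1D1.3, whose log2 fold change was 1.58 ± 0.49 (SE, unadjusted p = 0.0153, adjusted p = 1.00 in edgeR). It was higher in each pair, by 0.65, 2.86 and 1.75 on the log2(CPM + 1) scale. DCUN1D1.3 was also the 1 of 44 with an unadjusted p under 0.05 in DESeq2, without the block (background 0.387%) and with it (background 4.09%). In DESeq2 with the block its adjusted p was 0.0763, and it was 6.90e-05 without replicate 1 but 1.00 without replicate 2 and 1.00 without replicate 3. UBA3.5 and DCUN1D1.1 were higher without overlap (background 1.7% of tested guides), and UBE2F.10 was lower without overlap (background 0.532%), with 19, 13 and 0 counts at the low dose against 31, 22 and 44 without drug. In each of 3 pairs 5 member guides were higher (background 15.5%) and UBE2F.10 was lower (background 8.46%), but with TMM factors 4 were higher and 4 lower. DCUN1D1.1 overlapped once TMM factors were applied, with 46, 48 and 158 counts at the low dose against 14, 47 and 9 without drug.

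Of the gene sums at 200 against 0 µM, DCUN1D1 had a log2 fold change of 1.184 ± 0.74, UBA3 of 0.28 ± 0.46, NAE1 of 0.27 ± 0.54, UBE2M of 0.06 ± 0.43, UBE2F of -0.19 ± 0.38 and NEDD8 of -0.48 ± 0.58 (SE, edgeR adjusted p = 0.998 for each). DCUN1D1 without DCUN1D1.3 had -0.15 ± 1.24 (SE, edgeR adjusted p = 0.999), and 0.04 ± 0.15 with the block. No sum had an unadjusted p under 0.05 in edgeR (background 0%) or with the block (background 5.37%), while DCUN1D1 had one in DESeq2 (background 0.269%) and with its block (background 5.46%), where 0.0895% of genes passed. By CPM the DCUN1D1 sum was higher without overlap (background 1.61%), though not with TMM factors. UBA3, UBE2M and DCUN1D1 were higher in each pair (background 19.9%) and none was lower (background 8.68%), and with TMM factors UBA3 alone was higher and NEDD8 was lower.

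At 1500 against 200 µM no member guide or gene passed in any of these tests, where DESeq2 with the block called 0.416% of all tested guides and 2.15% of genes, DESeq2 without it 0% of guides and 0.0895% of genes, and edgeR 0% of both. DESeq2 gave no adjusted p for 33 of the 44 member guides and 4 of the 6 genes with the block, and for 5 of the 44 guides without it, so it did not test them fully. In edgeR with the block 1 of 44 member guides had an unadjusted p under 0.05 (background 1.95%), UBE2M.8, and 0 of 44 did without it (background 0.203%). In DESeq2 without the block 0 of 44 did (background 0.319%), and of the sums DCUN1D1 did (background 0.179%). In DESeq2 with the block 4 of 44 did, namely NAE1.7, NEDD8.4, UBA3.4 and UBE2M.8 (background 10.2%), and of the sums NEDD8 did (background 12.4%). UBA3.4 and UBE2F.10 were higher without overlap (background 0.948%) and NAE1.7 and DCUN1D1.1 lower (background 1.58%), of which UBE2F.10 alone kept this with TMM factors. All 6 gene sums had a log2 fold change above 0, from 0.05 ± 0.33 for UBE2F to 1.15 ± 0.71 for DCUN1D1 (SE, edgeR adjusted p = 0.999 each), but scaling by library totals alone gave -0.056 for NAE1 and -0.086 for UBE2F, and DESeq2 with the block gave -0.0064 for NAE1. The median over all genes was -0.01. With 1 library left out the DCUN1D1 value lay between 0.10 and 1.55, the lowest without replicate 1 at the high dose, and the signs of UBA3, NAE1 and UBE2F each turned in at least 1 case. No sum was higher without overlap (background 0.0895%). NEDD8 had 0.59 ± 0.53 (SE), with 0.30 without replicate 2 at the low dose and 1.19 without replicate 1 at the low dose as the ends of its range, and 0.62 ± 0.22 with the block (SE, unadjusted p = 0.0132, edgeR adjusted p = 0.618), where 6.62% of genes had an unadjusted p under 0.05. The sum without DCUN1D1.3 had -0.39 ± 1.13, and -0.24 ± 0.11 with the block (SE, edgeR adjusted p = 0.715). DCUN1D1.3 was lower at the high dose than at the low dose in replicate 3 and higher in replicates 1 and 2, at 3.82, 0.38 and -0.77 on the log2(CPM + 1) scale. The 3 comparisons share libraries and are not independent of each other.

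Other genes of the pathway gave no call in edgeR on gene sums, with or without the block, and were not read from DESeq2. Of the 12 cullins and their partners in a list of RBX1, RNF7, CUL1, CUL2, CUL3, CUL4A, CUL4B, CUL5, CUL7, CUL9, CAND1 and CAND2, 0 passed in either direction in edgeR on gene sums at 1500 against 0 µM, 5 were above 0, and the median log2 fold change was -0.04 against -0.03 over all genes. Their values ran from -0.67 ± 1.29 (SE) for CUL1, a scaffold of SCF ligases, to 0.53 ± 0.70 for CUL2, a scaffold of the VHL ligase (edgeR adjusted p = 1.00 for both). RNF7, the RING partner of UBE2F, was the highest of the list with the block, at 0.43 ± 0.19 (SE, edgeR adjusted p = 0.739). Of 11 genes that remove NEDD8 or lower its level 2 were in the library, and SENP8, a NEDD8 protease, had 0.01 ± 0.36 and NUB1, which directs NEDD8 to degradation, 0.03 ± 0.32 (SE). The COP9 signalosome subunits of that list were not analysed here. Of 8 other E1 enzymes and E1 subunits none passed and 5 were above 0, with a median of 0.24. SAE1, a subunit of the SUMO-activating enzyme, was the lowest at -0.13 ± 0.59 (SE, edgeR adjusted p = 1.00). UBA1, the main ubiquitin-activating enzyme, had 89.3 ± 71.7 CPM at the high dose against 80.4 ± 85.6 CPM without drug (SD, n = 3).

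Genes with a like profile over the 9 libraries were found by the root mean square difference of log2(CPM + 1), each gene centred on its own mean, among 1109 genes with a mean of at least 50 CPM. Closest to UBA3 were DIO2, KIF18A and RABGEF1, at 0.21, 0.22 and 0.22, against a median of 0.58 over all candidates. Closest to DCUN1D1 with DCUN1D1.3 was EP300, at 0.65 against a median of 1.33, followed by PSMD1 at 0.87 and RBBP5 at 0.93. The EP300 sum, for a histone acetyltransferase, averaged 2792 CPM without drug, 5574 CPM at the low dose and 7632 CPM at the high dose. Of its guides DESeq2 with the block called EP300.4 alone at 1500 against 0 µM, and how much of the sum that guide held was not examined. Without DCUN1D1.3 the closest genes were MDM2, PRICKLE1 and MARK4, at 0.37, 0.48 and 0.66 against a median of 1.70. This sum was highest in replicate 1 at every dose, and the measure does not separate dose from replicate number. The MDM2 sum averaged 1141 CPM without drug, 1261 CPM at the low dose and 1100 CPM at the high dose. None of the 3 nearest genes was shared between DCUN1D1 with and without DCUN1D1.3.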

How the data were processed

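The values were raw guide counts in a table that the authors deposited. Per the submitters' processing notes cutadapt 1.18, MAGeCK 0.5.8 and the build hg19 belong to its making, and no source used here gives further settings. Library totals bound the precision, and exact intervals and floors cover counting error only. Guides were named as in the table. Columns were matched to samples by title, and no column was left over. Members and gene lists were chosen with earlier results of these data known.

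Guide counts, and counts summed per gene, were compared between doses with edgeR 4.0.16 (TMM, robust quasi-likelihood test, 6 libraries per comparison, no block) in R 4.3.3, after a minimum of 10 counts in at least 3 of the 9 libraries, with Benjamini-Hochberg adjustment over all tested features. Each SE was taken as the size of the log2 fold change divided by the root of its F statistic. Alternatives were a replicate block, DESeq2 1.42.0, other scalings and filters, all libraries in 1 fit and each library left out. Leaving out a replicate number in DESeq2 was added after seeing the data. Fits were also run on simulated counts. Their spread was set alike for all features and only well-counted features were changed, so that run says nothing on the scarce guides. CPM used library totals, and pair differences log2(CPM + 1).

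Deviations from dose means correlated at 0.667 to 0.776 in the 9 pairs of libraries with the same number, above the 0.1 set for pairing, and at -0.448 to -0.255 in the 18 other pairs of libraries of different dose. Subtracting the mean of 3 libraries pushes these other correlations below 0, so their sign is no finding. The log2 levels themselves correlated at 0.798 to 0.885 in pairs with the same number and at 0.396 to 0.480 in the others. The numbers were therefore taken to pair the samples, from the data and not from a label. The fits without the block leave this pairing out, and the fits with the block use it. Members with fold changes were the gene sums, DCUN1D1.3 and the guide of lowest p per gene at 1500 against 0 µM, and further guides were chosen after their values were seen. The highest value of the list of other E1 enzymes is not reported here.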

Additional observations from a re-analysis of the deposited data

How the results depend on the processing

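Of the 60 member guides 16 were too low to be tested, against 833 of all 11170 guides. Abundant guides such as DCUN1D1.3 could differ widely between replicates, and what limited the calls was not tested. With the replicate block, edgeR called 0 guides in each comparison and 1 gene on summed counts at 1500 against 0 µM, which was no member. DESeq2 without the block called 1 gene at 1500 against 0 µM and 1 at 1500 against 200 µM. DESeq2 with the block called 6 guides at 1500 against 0 µM, 6 at 200 against 0 µM and 43 at 1500 against 200 µM, and 3, 1 and 24 genes in the same order of comparisons. Of these 1 was a member, DCUN1D1.3 at 1500 against 0 µM (log2 fold change 2.89). Pairing changed no other member call. Leaving out a replicate number in this fit, chosen after seeing the data, gave 2.13 to 3.79 for DCUN1D1.3 at 1500 against 0 µM, with 2.61 without replicate 2, 1.02 to 2.20 at 200 against 0 µM, and -0.061 to 2.27 at 1500 against 200 µM.

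Without guide DCUN1D1.3 the log2 fold change of the DCUN1D1 sum turned to -0.55, -0.15 and -0.39 at 1500 against 0, 200 against 0 and 1500 against 200 µM. That sum without DCUN1D1.3 was 0.041 with the replicate block and 0.030 in DESeq2 with the replicate block at 200 against 0 µM. Scaling by library totals alone moved the median of all gene sums at 1500 against 200 µM to -0.15, from -0.01. It gave -0.056 for NAE1, -0.086 for UBE2F and -0.098 for UBE2F.7 in that comparison, and 0.052 for UBE2M.8 at 200 against 0 µM. DESeq2 with the replicate block gave -0.0064 for NAE1 at 1500 against 200 µM. The cause of these turned signs was not tested.

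Leaving out 1 library turned signs in further values, none of them called. At 1500 against 0 µM the sums ranged from -0.038 to 0.75 for NAE1, -0.27 to 0.46 for NEDD8, -0.37 to 0.074 for UBE2F and -2.33 to 1.78 for DCUN1D1 without DCUN1D1.3, and the guides from -1.08 to 5.17 for NEDD8.7 and -1.53 to 0.43 for UBE2F.7. At 200 against 0 µM they ranged from -0.00038 to 0.55 for UBA3, -0.48 to 0.031 for UBE2F, -0.20 to 0.34 for UBE2M, -2.18 to 2.17 for DCUN1D1 without DCUN1D1.3, -0.70 to 1.57 for NAE1.1, -5.53 to 2.74 for NEDD8.7, -1.58 to 0.36 for UBE2F.7 and -2.21 to 0.53 for UBE2M.8. At 1500 against 200 µM they ranged from -0.32 to 0.28 for NAE1, -0.043 to 0.50 for UBA3, -0.094 to 0.35 for UBE2F, -2.17 to 1.64 for DCUN1D1 without DCUN1D1.3, -0.74 to 7.72 for NEDD8.7 and -0.22 to 0.44 for UBE2F.7.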
